A study of Mus musculus with 24 samples.

Results

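Mm038 and Mm039 are 2 of the 120 mouse probes on the Sterolgene V1 array, a focused microarray for drug metabolism and cholesterol homeostasis. They were chosen by name, because their signal rose most after phenobarbital in wild-type and PXR-deficient liver, so the values in those 2 genotypes are given below as a description and carry no p-value. The study profiled whole liver of male C57BL/6J mice killed 12 h after phenobarbital was given into the peritoneum at 100 mg/kg. Each of 4 genotypes had 6 arrays: wild type (WT), CAR deficient, PXR deficient and CAR/PXR deficient, the last lacking both receptors. On each array Cy5 labelled the RNA of phenobarbital-treated liver, and Cy3 labelled pooled RNA from 6 vehicle-treated livers (corn oil with 5% DMSO) of that genotype. An age of 9 to 12 weeks is stated for the deficient mice, and none is used here for WT. The dyes were never swapped, and 1 pool per genotype served as the reference, so the spread between vehicle mice is not in these data. The labels do not say that replicates are separate mice, so every spread given is that between these samples. PXR-deficient replicates 1 and 2 differed no more than replicate spots do (1.04 times the variance expected from spots, against at least 1.79 for every other pair of arrays within a genotype), so the pair stands as 1 sample, and 24 arrays gave 23 samples.

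CAR and PXR are nuclear receptors that sense foreign compounds in hepatocytes and switch on enzymes and transporters of drug metabolism, each pairing with the retinoid X receptor on DNA. Phenobarbital is the classical activator of CAR, which it moves from the cytoplasm into the nucleus without binding it, and the cytochrome P450 gene Cyp2b10 is the textbook response of mouse liver. PXR binds many drugs and steroids directly, with Cyp3a11 as its textbook target in mouse, and the receptors share part of their targets. The files do not pair Mm038 or Mm039 with a gene or a sequence, so neither probe is tied here to these genes, and it is not known whether the 2 probes read 1 transcript or different ones. Without gene names the cell types in the samples could not be checked by markers. In bulk liver, fewer cells of a type and less RNA per cell cannot be told apart.

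Each probe was spotted 3 times per array. All copies of Mm039 lay in the first of the 2 printed blocks and all copies of Mm038 in the second, so the probes did not share neighbouring spots. No copy of either probe held a saturated pixel in Cy5. The arrays differed in brightness: between 0 and 66.4 percent of the mouse probe spots on an array carried a flag of the scanning software, and on WT replicate 1 the spots named as negative controls had a median of 2874 intensity units above local background in Cy5, against 29.5 to 166 on the other 23 arrays. Mm038 was above background in at least 1 channel on 15 arrays and Mm039 on 17, of which 12 in each case were the WT and PXR-deficient arrays. Both therefore passed the filter on dim probes, together with 78 other probes, through the genotypes in which they were bright. Here a probe counts as above background in a channel if at least 2 of its 3 copies exceeded the local background by 2 SD.

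After phenobarbital, Mm038 was bright in WT and PXR-deficient liver and near the level of empty background in CAR-deficient liver. Averaged over the copies, its Cy5 signal above local background in WT was 2762 intensity units at the lowest, 4908 at the median and 18047 at the highest, the last on the bright WT replicate 1. In PXR-deficient liver it was 3633, 5126 and 5519. In CAR-deficient liver it was 42.7, 73.2 and 90.3, so the highest of the 6 CAR-deficient arrays lay below the lowest array of WT and of PXR-deficient liver. The negative control spots of the CAR-deficient arrays had medians of 33.5 to 78 in the same channel, and Mm038 was 0.918 to 1.78 times that median, against 49.2 to 147 times in WT replicates 2 to 6. In WT replicate 1, where the negative controls were bright themselves, it was 6.28 times. In CAR/PXR-deficient liver the Cy5 signal of Mm038 was 58 at the lowest, 110 at the median and 835 at the highest, with the 2 highest arrays, replicates 3 and 4, standing apart from the other 4.

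Mm039 was likewise bright in WT and PXR-deficient liver and dim in the other 2 genotypes. Its treated signal was 1759 at the lowest, 4452 at the median and 19373 at the highest in WT, and 3488, 4724 and 7001 in PXR-deficient liver. In CAR-deficient liver it was 89.3, 142 and 205, and in CAR/PXR-deficient liver 65, 118 and 1046. For both probes, the arrays of WT and of PXR-deficient liver overlapped each other and did not overlap the arrays of the other 2 genotypes. WT and PXR-deficient values chose the probes, and how many other probes separate in this way was not counted. All 18 copies of each probe in WT, and all 18 in PXR-deficient liver, were above background in the treated channel. In CAR-deficient liver 0 of 18 copies of Mm038 and 6 of 18 of Mm039 were, the 6 being all copies on replicates 5 and 6. In CAR/PXR-deficient liver the counts were 7 of 18 for Mm038 and 5 of 18 for Mm039. At the scale of pixels, the median copy of Mm038 had 100 percent of its pixels above local background by 2 SD in treated WT liver and 10 percent in treated CAR-deficient liver.

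In WT and PXR-deficient liver the vehicle pool was far dimmer than treated liver for both probes. In the WT pool Mm038 was 239 at the lowest, 359 at the median and 1153 at the highest over the 6 arrays, and Mm039 was 206, 348 and 1541. In the PXR-deficient pool Mm038 was 253, 353 and 454 and Mm039 was 298, 430 and 805. These readings were above background for Mm038 on 1 of 6 WT and 2 of 6 PXR-deficient arrays, and for Mm039 on 1 and 3 of 6. The bottom of each ratio in the responding genotypes was thus set by a signal near background, and the folds are less certain than the spread between arrays shows. In the other 2 genotypes the median pool reading was above the median treated reading. The negative control spots had the same order of channels. Their median was 50.25 treated and 85.25 in the pool channel for CAR-deficient arrays, and 80 and 205.75 for CAR/PXR-deficient arrays. These raw readings therefore do not show a fall after phenobarbital. In the CAR-deficient pool Mm038 was 63.3 at the lowest, 108 at the median and 151 at the highest, above background on 0 of 6 arrays, and Mm039 was 60.3, 184 and 427, above background on 2 of 6. In the CAR/PXR-deficient pool Mm038 was 138, 427 and 1175 and Mm039 was 126, 517 and 991, each above background on 3 of 6 arrays. Each pool is 1 sample, so pool levels were not compared between genotypes by a test.

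**Figure D1:**
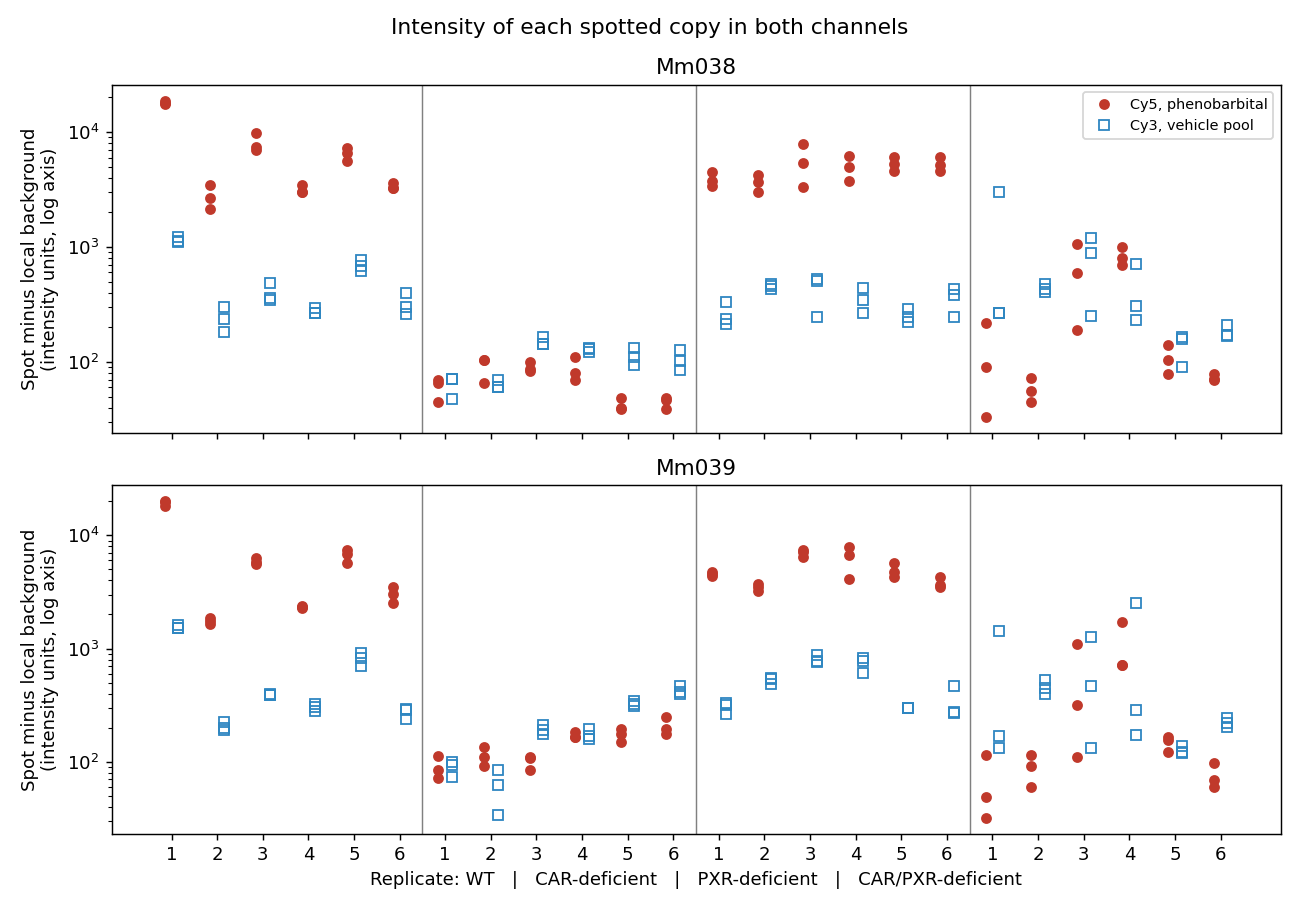
Intensity above local background of every spotted copy of Mm038 (top) and Mm039 (bottom) on each of the 24 arrays, on a log axis, with the treated channel (Cy5) as filled circles and the vehicle pool (Cy3) as open squares. The treated copies lie between 1655 and 20016 units in WT and PXR-deficient liver, while those of CAR-deficient liver lie between 39 and 246.

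The response is the log2 ratio of treated liver over pool after background correction and loess normalization, so that 0 means no difference. In WT the ratio of Mm038 was 1.87 at the lowest, 3.06 at the median and 3.92 at the highest of 6 samples, with a mean of 3.01 ± 0.75 (SD, n = 6; SE 0.29), an 8.05-fold rise with a 95% interval of 5.26 to 12.3. That interval covers the spread between arrays and not the pool reading, which was above background on 1 of 6 arrays. Mm039 was 1.58, 2.87 and 3.27, with a mean of 2.66 ± 0.67 (SD, n = 6), a 6.33-fold rise with an interval of 4.40 to 9.09 and the same limit. Every sample of both probes was above 1, which held for 2.5 percent of the 80 probes tested in WT, that is for the 2 chosen probes and no other.

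In PXR-deficient liver Mm038 had log2 ratios of 3.34 (replicates 1 and 2 averaged), 4.14, 3.94, 3.15 and 2.60, with a mean of 3.43 ± 0.62 (SD, n = 5). Mm039 had 3.20, 3.56, 3.33, 2.86 and 2.32, with a mean of 3.05 ± 0.48 (SD, n = 5). In this genotype 5.06 percent of 79 probes were above 1 in every measured sample, and both probes were among these 4.

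The samples of WT and PXR-deficient liver overlapped for both probes, so the ratios do not separate these genotypes. The mean of Mm038 was 0.42 higher without PXR (SE 0.43), a 1.34-fold difference with a 95% interval of 0.714 to 2.52. For Mm039 the difference was 0.39 (SE 0.37), 1.31-fold with an interval of 0.766 to 2.25. Both intervals hold a smaller as well as a larger response without PXR. The authors' deposited table gave a wider gap: for Mm038 its WT values ran from 1.19 to 3.36 and its PXR-deficient values from 3.60 to 3.94, and for Mm039 from 1.20 to 2.81 and from 3.54 to 3.72. The groups do not overlap there, and how many other probes separate in that table was not counted. The table has no value of either probe for WT replicate 4 or PXR-deficient replicates 5 and 6, although all 3 copies were unflagged on each of these arrays. Its arrays were also not on 1 scale, since their medians over all probes ran from -0.43 to 0.18 over the WT arrays and from 0.03 to 0.54 over the PXR-deficient arrays. With each array of the table centred on its median, the mean difference between PXR-deficient and WT liver was still 1.36 for Mm038 and 1.46 for Mm039. Centred in this way, the WT and PXR-deficient values overlapped for Mm038 and stayed apart for Mm039.

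In WT and PXR-deficient liver the lowest normalized ratios sat on the arrays with the brightest local background in the pool channel. WT replicate 5, the lowest sample for both probes, had a median Cy3 background of 1412 units, against 446 to 643 on the other WT arrays. PXR-deficient replicate 6, again the lowest for both, had 1126, against 335 to 756. Over the other arrays the ratios did not fall steadily with that background. WT replicate 4, at 643, had the highest WT ratios of both probes (3.92 and 3.27). PXR-deficient replicate 1, at 335, had 3.38 and 3.35, below replicate 3 (4.14 and 3.56), while replicate 5, at 756, was lower (3.15 and 2.86). With background subtracted and no normalization, PXR-deficient replicate 6 was not low (3.93 for Mm038 and 3.54 for Mm039), replicate 2 was the lowest of its genotype (2.99 and 2.73), and the lowest WT array was replicate 5 for Mm038 (3.22) but replicate 4 for Mm039 (2.95). The SD of the 6 WT ratios was 0.41 with that setting and 0.75 as reported for Mm038, and 0.38 and 0.67 for Mm039. Over the 6 PXR-deficient arrays it was 0.46 and 0.56 for Mm038, and 0.51 and 0.45 for Mm039. The settings differ in background correction as well as in normalization. The part of the background in the low ratios was not tested.

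**Figure D2:**
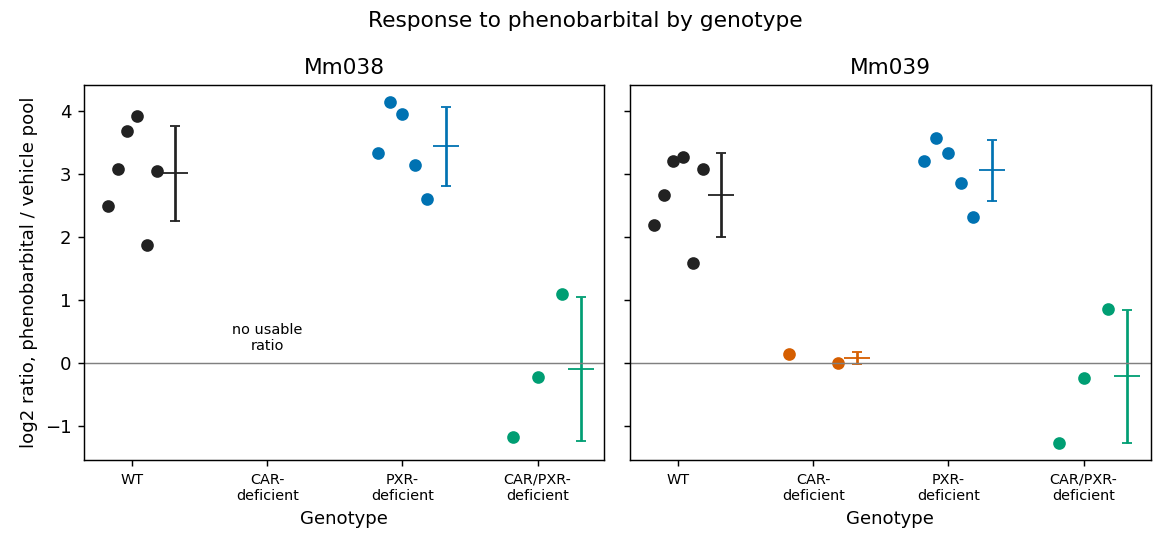
Log2 ratio of phenobarbital-treated liver over the vehicle pool for Mm038 (left) and Mm039 (right), with a point per sample and, to the right of the points, the mean with its SD. All WT and PXR-deficient samples lie between 1.58 and 4.14, Mm038 has no usable ratio in CAR-deficient liver, and the CAR/PXR-deficient samples spread from -1.27 to 1.09.

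The response in CAR-deficient liver did not enter the choice of the probes and could be tested, as far as it was measured. Mm039 had log2 ratios of 0.14 and 0.002 in replicates 5 and 6, the arrays on which it was above background in both channels. Its mean of 0.07 ± 0.10 (SD, n = 2; SE 0.43) did not differ from 0 in limma's test over all probes (adjusted p = 0.929), with a 95% interval of -0.83 to 0.98, or 0.561-fold to 1.97-fold. The shared spread of all groups sets that interval, since 2 samples give little of their own. On these arrays Mm039 was thus measured, at 173 and 205 units in the treated channel and 327 and 427 in the pool, and the medians of the negative control spots there were 36 to 111 over both channels. The test called 0 percent of the 78 probes measured in CAR-deficient liver, with 12 at an unadjusted p under 0.05. All 18 copies of Mm038 were flagged in this genotype, so it had no usable ratio. With flagged spots kept, its 6 ratios ran from -0.59 to 0.08 (mean -0.22 ± 0.26, SD, n = 6; limma's adjusted p = 0.882), but both channels were at background. Levels of the treated channel, normalized within arrays against the pool and then between arrays, give a bound. On average Mm038 was at least 15.3-fold brighter in WT and at least 14.8-fold brighter in PXR-deficient liver than without CAR. For these bounds the mean of the brighter genotype was compared, on each CAR-deficient array, with the dimmest probe still above background. They are open to dye bias, leave out the spread of the brighter genotype, and describe the genotypes that chose the probe.

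In CAR/PXR-deficient liver the ratios were few and scattered. Mm038 had log2 ratios of -1.18, -0.22 and 1.09 in replicates 1, 3 and 4, with a mean of -0.10 ± 1.14 (SD, n = 3; SE 0.41). Mm039 had -1.27, -0.23 and 0.85 in the same replicates, with a mean of -0.22 ± 1.06 (SD, n = 3; SE 0.35). Neither mean differed from 0 in limma's test (adjusted p = 0.896 for Mm038 and 0.642 for Mm039), in a comparison that called 33.8 percent of 80 probes. The 95% intervals were 0.511-fold to 1.70-fold and 0.516-fold to 1.44-fold. They use the shared spread of all groups, which is smaller than that of these 3 samples, so larger changes are not excluded. Replicates 1 and 4 were at 0.442-fold and 2.13-fold for Mm038, and at 0.416-fold and 1.81-fold for Mm039. The highest CAR/PXR-deficient sample lay below the lowest WT and PXR-deficient samples for each probe, but those genotypes chose the probes. How many other tested probes separate in this way was not counted. For Mm039 the difference between CAR/PXR-deficient and CAR-deficient liver was -0.29 (SE 0.55, 3 samples against 2) and did not pass (adjusted p = 0.807; 7.69 percent of 78 probes did). Its interval, 0.365-fold to 1.84-fold, excludes neither a moderate fall nor a moderate rise.

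The scatter in CAR/PXR-deficient liver went with disagreement among the 3 copies. On replicate 1 the pool signal of Mm038 was 2993 units in its brightest copy and 266 in its dimmest, an 11.3-fold range, and that of Mm039 was 1423 against 131, a 10.9-fold range. On replicate 3 the pool range was 4.69-fold for Mm038 and 9.58-fold for Mm039. On replicate 4 it was 3.06-fold for Mm038 and 14.4-fold for Mm039, whose copies there gave log2 ratios from -0.45 to 1.76. On replicates 2, 5 and 6, where all copies of both probes were flagged, the range was at most 1.84-fold. The median pool range over the measured probes was 1.21-fold to 1.66-fold on these 6 arrays, and 5 to 14.3 percent of probes on replicates 1, 3 and 4 had a range over 4-fold. The treated copies on replicate 4 were closer to each other, with a 1.45-fold range for Mm038 and 2.41-fold for Mm039, and all 3 copies of each probe were unflagged there. Ratios from replicate 1 rest on 1 unflagged copy per probe, which was the brightest copy in the pool. The flagged copies there gave log2 ratios of 0.21 and 0.90 for Mm038 and 1.11 and 0.63 for Mm039. Neither probe counted as above background in the treated channel of that array. Single negative control spots on replicate 3 reached 2184 units in the treated channel and 2970 in the pool. With arrays of at least 2 unflagged copies only, the means became 0.44 for Mm038 and 0.31 for Mm039 (adjusted p = 0.500 and 0.548, n = 2 each). Leaving out replicate 1 turned the sign of both means in the same way, while the means without replicate 4 were -0.70 and -0.75.

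The result without both receptors depended on how the arrays were centred. Centred on the calibration spike-in spots, Mm038 and Mm039 had mean log2 ratios of 1.01 and 1.03 (adjusted p = 0.00935 and 0.00598). In the authors' deposited values the means were 1.26 and 1.27 (adjusted p = 0.00281 and 0.00839). The same scalings called 92.5 percent of all 80 probes higher, with median log2 ratios over all probes of 1.12 and 1.34. Set against that shift, both probes lay below the median probe. They were at places 54 and 52 of 80 from the top when centred on the spike-ins, and at places 44 and 43 by the deposited values.

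**Figure D3:**
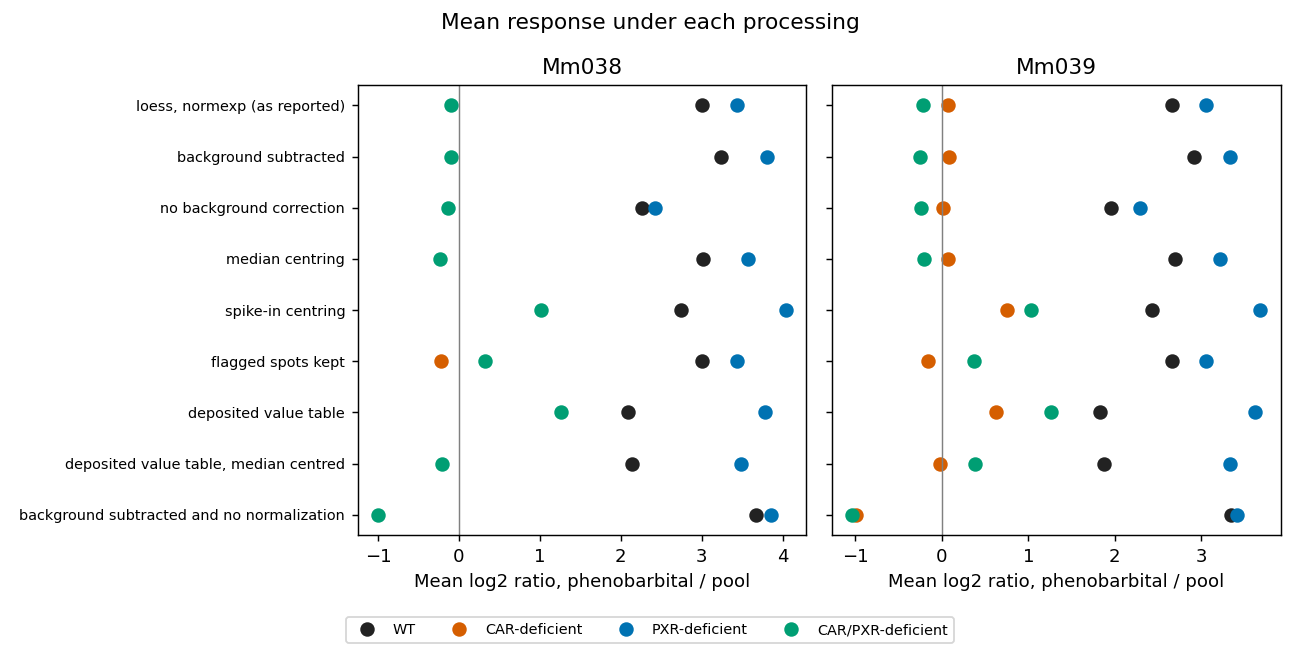
Mean log2 ratio of Mm038 (left) and Mm039 (right) in each genotype under the ways of processing named on the vertical axis, with the reported one on top. WT and PXR-deficient means stay at 1.83 or above in every row, while the CAR/PXR-deficient means move between -1.03 and 1.27. The CAR-deficient mean of Mm039 moves between -0.997 and 0.755.

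The 2 probes moved together from sample to sample. In WT their log2 ratios correlated at r = 0.956 (Spearman's rho 0.943, n = 6), and at r = 0.889 without replicates 4 and 5, the samples farthest from the median of Mm038. Over the 11 samples of WT and PXR-deficient liver, taken as deviations from the mean of the own genotype, the correlation was r = 0.956 (rho 0.945). These are descriptions without a p-value, since both values of a sample come from 1 array, with the same labelling, background and normalization curve. Mm038 had the higher ratio in 10 of the 11 samples. Its log2 ratio exceeded that of Mm039 by 0.36 ± 0.21 (SD, n = 11), and WT replicate 6 was the exception at -0.03. In the 3 CAR/PXR-deficient samples the difference was 0.02 to 0.24. The 3 copies on an array usually lay close together: the median SD of their log2 ratios in WT was 0.14 for Mm038 and 0.07 for Mm039, against 0.10 over all tested probes, and 0.18 and 0.12 in PXR-deficient liver, against 0.14. Single arrays were wider, with copy SDs of up to 0.650 for Mm039 in PXR-deficient liver and 1.16 in CAR/PXR-deficient liver.

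**Figure D4:**
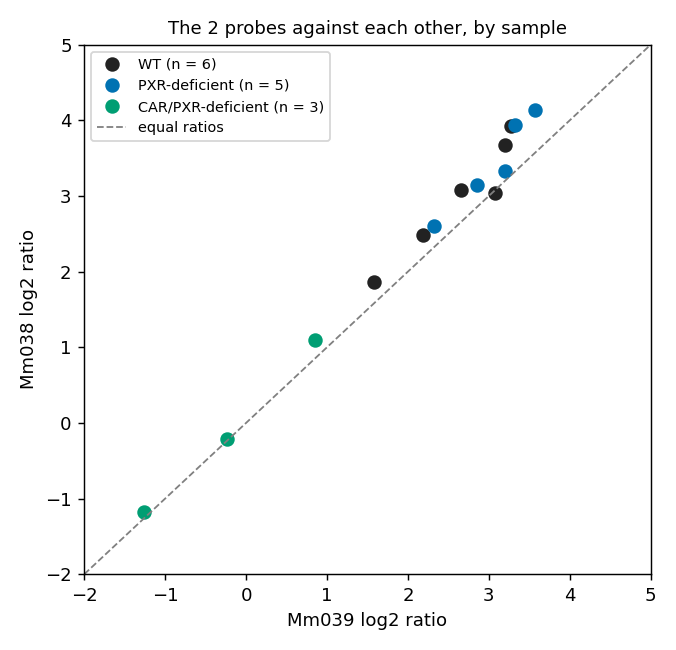
Log2 ratio of Mm038 against that of Mm039 in the 14 samples with both values, coloured by genotype, with a dashed line where the ratios are equal. In WT and PXR-deficient liver 10 of 11 points lie above the line, and the 3 CAR/PXR-deficient points lie near it at lower ratios.

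Among the other 78 tested probes, Mm052 alone also had a mean log2 ratio over 1 in both WT and PXR-deficient liver. Its mean was 1.01 ± 0.83 (SD, n = 4) in WT and 1.85 ± 0.25 (SD, n = 2) in PXR-deficient liver, and it was 0.32 ± 0.31 (SD, n = 6) in CAR-deficient and -0.29 ± 0.38 (SD, n = 2) in CAR/PXR-deficient liver. The gap below the chosen probes was wide: the next highest mean in WT was 1.23 (Mm144), against 2.66 for Mm039, and the next in PXR-deficient liver was Mm052, against 3.05. Likeness from sample to sample was taken as the correlation of such deviations with Mm039 over the 11 WT and PXR-deficient samples, for the 38 other probes (Mm038 included) with a value in all of them. After Mm038, the highest were Mm047 (r = 0.847, rho 0.755), Mm016 (r = 0.662, rho 0.591) and Mm050 (r = 0.616, rho 0.345). Mm047 did not share the response, with a mean log2 ratio of -0.26 ± 0.16 (SD, n = 6) in WT and -0.17 ± 0.17 (SD, n = 5) in PXR-deficient liver. Mm016 had 0.68 ± 0.20 (SD, n = 6) in WT and 0.79 ± 0.39 (SD, n = 5) in PXR-deficient liver. It had 0.22 ± 0.26 (SD, n = 6) in CAR-deficient and 0.76 ± 0.61 (SD, n = 6) in CAR/PXR-deficient liver. The means of Mm038 and Mm039 in CAR/PXR-deficient liver (-0.10 and -0.22, n = 3) did not differ from 0 as reported, and their sign changed with the processing. Mm050 had 0.75 ± 0.39 (SD, n = 6) in WT, 1.46 ± 0.42 (SD, n = 5) in PXR-deficient, 0.22 ± 0.22 (SD, n = 6) in CAR-deficient and 0.34 ± 0.36 (SD, n = 6) in CAR/PXR-deficient liver, so its means were lower in both genotypes without CAR.

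**Figure D5:**
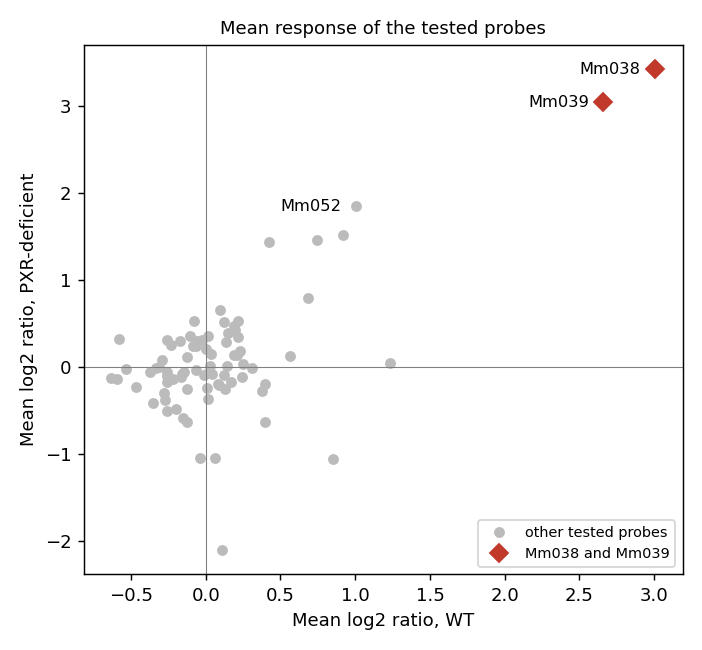
Mean log2 ratio in WT (horizontal) and PXR-deficient liver (vertical) of the 80 tested probes, with Mm038 and Mm039 as diamonds. Both lie apart from the other 78 probes in both directions, as they were chosen to, and Mm052 is the next probe that exceeds 1 in both genotypes.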

How the data were processed

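The data are 24 two-channel arrays. Per the file headers, each deposited file gives, per spot, the pixel intensity at both wavelengths (mean and median), the local background intensity (median and SD), how many percent of the pixels were saturated or above background, and a flag score. Scanner and software: not given in the sources used here. Log2 ratios per probe are in the authors' deposited table; their centring is not stated, so their scale between arrays is unknown. Its direction, treated over pool, follows from the scanner values. One treatment tag of WT replicate 1 puts phenobarbital in the Cy3 channel; its source name and protocol say vehicle pool, which was followed.

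Analyses used R 4.3.3 with limma 3.58.1, and Python 3.11.15 with matplotlib 3.10.9 for figures. The mean intensities were background-corrected by normexp (offset 50), and each array was normalized by loess on its unflagged mouse probe spots. Flagged spots were left out and copies averaged. Probes above background on at least 12 arrays were tested (80). All 23 samples entered 1 limma fit of genotype means, with each response tested against 0 and differences tested as contrasts. The p-values were adjusted over all tested probes (Benjamini-Hochberg, threshold 0.05), and all adjusted p-values come from this fit unless another setting is named. Levels per channel used Aquantile normalization. The fit was tested on simulated data. The number of arrays limits the precision.

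The members, lists and tests were chosen with earlier results of these data known. The planned gene lists, cell type markers and receptor genes could not be tested, since no probe is paired with a gene. Other probes were named by a rule: a mean log2 ratio over 1 in both WT and PXR-deficient liver, or 1 of the 3 highest correlations with Mm039. Replicate numbers are shared between genotypes but mark different animals.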

Additional observations from a re-analysis of the deposited data

Results flagged for a closer look

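In a search for single arrays that stood apart from the rest of their genotype, 36 sets of values of Mm038 and Mm039 were examined (ratios, and intensities and normalized levels in each channel), and 3 were flagged by Dixon's gap criterion, where chance alone flags about 1 set in 20. WT replicate 1 had the highest treated signal for Mm038 (18047 intensity units above local background, against at most 8082 on the other WT arrays). It was also highest for Mm039 (19373 units, against at most 6623). Its ratios were within the range of the WT samples, at 2.48 and 2.18 on the log2 scale, and its negative control spots and its median probe (3847 units above background in Cy5, against at most 471 on the other WT arrays) were bright too. WT replicate 5 had the highest normalized pool level of Mm039 (log2 level 10.58, against 9.01 to 9.39 on the other WT arrays), and the lowest normalized log2 ratio of both probes.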

How the results depend on the processing

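The rise of both probes in WT and PXR-deficient liver kept its sign in all settings tried, and its size depended on the processing. With no background correction Mm038 had a mean log2 ratio of 2.43 in PXR-deficient liver, and Mm039 had 1.96 in WT and 2.29 in PXR-deficient liver. In the authors' deposited table the WT means were 2.09 (Mm038) and 1.83 (Mm039), or 2.13 and 1.87 after median centring, and Mm039 in PXR-deficient liver was 3.63. The PXR-deficient minus WT difference was 1.69 (Mm038) and 1.79 (Mm039) in that table, and 1.36 and 1.46 after centring. With spike-in centring Mm038 and Mm039 were 4.04 and 3.68 in PXR-deficient liver, and 1.29 and 1.24 above WT. Background subtraction with no normalization, a setting added after the data were seen, gave 3.35 for Mm039 in WT. Without both receptors Mm038 and Mm039 became 1.01 and 1.03 when centred on spike-ins, 1.26 and 1.27 by the deposited values, 0.33 and 0.38 with flagged spots kept, and 0.44 and 0.31 with at least 2 unflagged copies, also added later; Mm039 became 0.39 in the centred table. In CAR-deficient liver Mm039 became -0.15 with flagged spots kept, -0.0225 in the centred table and -0.997 with no normalization. Its CAR/PXR-deficient minus CAR-deficient difference became 0.28 (spike-in centring), 0.53 (flagged spots kept), 0.64 (deposited table), 0.41 (centred table) and 0.24 (2 copies). The causes of these changes were not tested.

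Leaving out single samples moved the mean of Mm038 between 2.83 and 3.24 in WT, 3.26 and 3.64 in PXR-deficient liver and -0.70 and 0.44 in CAR/PXR-deficient liver. For Mm039 the ranges were 2.54 to 2.88, 2.93 to 3.24 and -0.75 to 0.31, and 0.002 to 0.14 in CAR-deficient liver. The PXR-deficient minus WT difference ranged from 0.20 to 0.63 (Mm038) and 0.17 to 0.57 (Mm039), the CAR/PXR-deficient minus CAR-deficient difference of Mm039 from -0.82 to 0.24, and the difference between the probes from 0.33 to 0.40. No adjusted p fell below 0.133 in these fits. Same-numbered samples of different genotypes correlated over 0.1 in 14 of 36 pairs (median 0.02), so the numbers were not taken to pair the samples. WT and PXR-deficient samples correlated at 0.18 to 0.62 in 5 of 6 pairs and not in replicate 1 (5.85e-05). The SEs and intervals of their difference take no account of such pairing. Under a block for the replicate number, over 24 arrays, that difference was 0.41 for Mm038 and 0.42 for Mm039. With the replicate number as a block and 24 arrays, the CAR/PXR-deficient means were -0.48 and -0.50 (adjusted p = 0.212 and 0.248), Mm039 in CAR-deficient liver was 0.48 (adjusted p = 0.463) and its CAR/PXR-deficient minus CAR-deficient difference -0.98 (adjusted p = 0.260), so no call changed. Mm038 in CAR-deficient liver had a value only with flagged spots kept. The labels name no scan position, so arrays were split into a lower and an upper position by the vertical coordinate of their spots. Within the lower position lay 3 of 6 PXR-deficient and 5 of 6 WT arrays. There Mm038 had mean log2 ratios of 3.56 and 3.002, and in the upper 3.28 (3 arrays) and 3.04 (1 array). Mm039 had 3.26 and 2.58 in the lower, and 2.90 and 3.07 in the upper, turning the direction.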
